A study of Mus musculus with 16 samples.

Results

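The 10 genes described here are Abl1 and Bcr, the parents of the BCR-ABL1 fusion, with Abl2, the close relative of Abl1, and 7 genes for signalling proteins that act next to the fusion kinase, Crkl, Crk, Grb2, Gab2, Sos1, Cbl and Shc1. They were chosen by name, with no threshold on their values, out of 50686 genes in the count tables, of which 29942 had at least 1 count. RNA was sequenced from pro-B leukemic lines of C57BL/6N mouse bone marrow, all of them transformed with a pMSCV retrovirus that carries BCR-ABL1 p185 and GFP. There were 4 Cdk8 fl/fl lines, which the labels call wildtype, and 4 Cdk8 Δ/Δ lines, in which Cre driven by the Vav promoter had removed Cdk8 from blood cells. Each line was cultured for 48 h with DMSO or with 1 µM Senexin B, an inhibitor of the kinases CDK8 and CDK19, which gave 4 groups of 4 libraries. The lines were derived individually, and whether a line is 1 clone is not given in the sources used here. A replicate number names a line, and both libraries of a line carry the same number.

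BCR-ABL1 is a tyrosine kinase that is always active. BCR contributes the part that brings fusion molecules together, and ABL1 contributes the kinase. A phosphorylated tyrosine in the BCR part binds the adaptor GRB2, which carries SOS1, the exchange factor that switches RAS on, and GAB2, a docking protein that leads to PI3 kinase and SHP2. CRKL and CRK are SH2 and SH3 adaptors, and CRKL is a classical substrate of the fusion kinase in Philadelphia chromosome positive leukemia. SHC1 is a further adaptor to GRB2, and CBL is a ubiquitin ligase that binds activated kinases and marks them for removal.

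In the p185 form, exon 1 of BCR is joined to exon 2 of ABL1, so the fusion transcript holds coding sequence of both genes. The ends that meet at this junction are shown for the mouse genes because they explain what the gene counts can and cannot separate. Bases were read from the GENCODE M21 transcripts (GRCm38), 60 for each gene, with the 20 that border the junction in capitals. The first lies on the plus strand at chr10:75062251-75062310, at the end of exon 1 of Bcr, and the second on the plus strand at chr2:31778334-31778393, at the start of exon 2 of Abl1. Both are coding, and exons are numbered in a Bcr transcript of 23 exons and an Abl1 transcript of 11.
Bcr exon 1 end: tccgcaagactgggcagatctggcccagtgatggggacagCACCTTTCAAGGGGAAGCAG
Abl1 exon 2 start: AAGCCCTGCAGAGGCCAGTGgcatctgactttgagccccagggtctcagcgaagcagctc
Exons 2 to 11 of Abl1 hold 3290 coding bases, and exon 1 of Bcr holds 1285 of the 3810 coding bases of Bcr. A read that lies within these exons is counted for Abl1 or for Bcr whether it came from the cell's own gene or from a fusion transcript that matches it. Counts per gene therefore give the sum of the endogenous transcript and of those reads of the retroviral transcript that mapped to the mouse gene. The species of the fusion cDNA is not given in the sources used here, and the size of its share was not tested.

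Between 13145876 and 18349425 reads per library fell on genes, with a median of 15473664.5. All 9 pro-B markers fixed for these cells were over 1 count per 1000000 (CPM) in each of the 16 libraries, with Pax5 between 786 and 1616 CPM. Of 19 markers of T, myeloid, erythroid, megakaryocytic and stromal cells, 14 stayed under 1 CPM in all libraries, and Elane, S100a8 and Pf4 were at 0 in all 16. With DMSO the 19 summed to 22.4 to 121 CPM in the Cdk8 fl/fl and 41.5 to 92.6 CPM in the Cdk8 Δ/Δ lines, and with Senexin B to 36.4 to 138 CPM and 29.1 to 118 CPM. The highest of them was Lck, at 17.5 to 133 CPM, while the T cell markers Cd3e, Cd3d, Cd4 and Cd8a reached at most 0.246 CPM. Lyz2, a myeloid marker, ranged from 0.164 to 24.6 CPM. The part of these markers in the results was not tested. Cdk8 itself was 61.8 to 68.7 CPM in the 4 Cdk8 fl/fl DMSO libraries and 35.3 to 52.1 CPM in the 4 Cdk8 Δ/Δ DMSO libraries, without overlap. With Senexin B the ranges were 55.2 to 89.4 CPM and 41.2 to 61.7 CPM, which overlap. The log2 fold change of Cdk8 with DMSO was -0.55 ± 0.14 (adjusted p = 0.897, edgeR). The counts cover all exons of Cdk8, those that the deletion leaves included.

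Levels were compared between genes as CPM per kilobase of exon, over the means of the 8 lines. For Abl1 and Bcr these can include reads of the fusion transcript, which holds only part of their exons. Their levels and places are therefore not those of the endogenous transcripts alone. Abl1 was highest at 63.7 ± 45.8 CPM per kilobase (SD, n = 8 lines), followed by Crkl at 41.5 ± 3.40, Bcr at 32.9 ± 13.2, Cbl at 27.3 ± 5.76 and Grb2 at 26.6 ± 2.13. Crk at 16.9 ± 3.78, Sos1 at 13.8 ± 2.94, Gab2 at 12.6 ± 4.57 and Shc1 at 11.9 ± 1.24 followed, and Abl2 was lowest at 6.54 ± 0.821. Of the 9 neighbouring pairs in this order, only Shc1 and Abl2 had ranges over the 8 lines that did not overlap. Grb2 was nevertheless above Crk within each of the 8 lines, while Bcr was above Cbl in 4 of 8 and Gab2 above Shc1 in 4 of 8. Abl1 was above Crkl in 5 of the 8 lines. Among the 12560 genes with a mean of at least 1 CPM, 5.96% stood above Abl1 per kilobase, 10.1% above Crkl and 52.1% above Abl2.

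**Figure D1:**
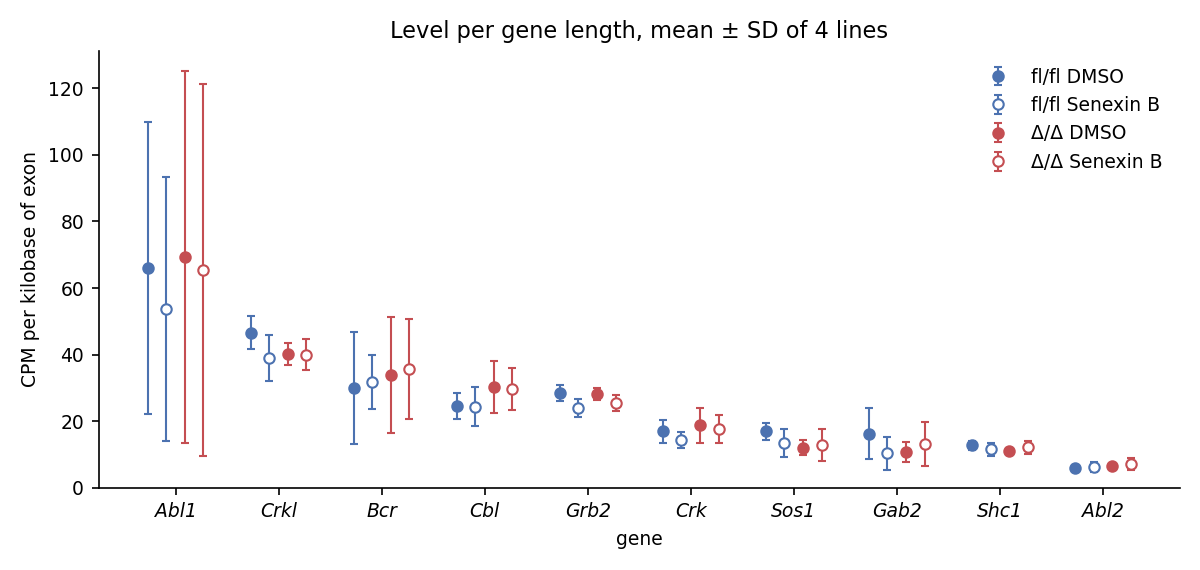
Level of each of the 10 genes in CPM per kilobase of exon (y axis) by gene (x axis), as the mean with bars of 1 SD over 4 lines for each of the 4 groups, filled for DMSO and open for Senexin B. In all 4 groups the bar of Abl1 is the widest, and that of Bcr is wider than those of Crkl, Cbl and Grb2.

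Abl1 differed widely between lines, and the group means differed by less than that spread. Abl1 (ENSMUSG00000026842, chr2:31688376-31804227, plus strand, 11596 exonic bases) encodes the ABL1 tyrosine kinase. In the Cdk8 fl/fl lines 1, 2, 3 and 4 it stood at 1503, 701, 479 and 385 CPM with DMSO and at 1310.2, 462, 339 and 380.3 CPM with Senexin B. In the Cdk8 Δ/Δ lines 1, 2, 3 and 4 it stood at 665, 1758, 387 and 409 CPM with DMSO and at 551, 1722, 354 and 405 CPM with Senexin B. Line 1 of Cdk8 fl/fl and line 2 of Cdk8 Δ/Δ were thus high with and without the inhibitor, 1 line in each genotype, and no library of another line exceeded 701 CPM. From the lowest to the highest line mean, 370.4 CPM in Cdk8 Δ/Δ line 3 and 1740 CPM in Cdk8 Δ/Δ line 2, the level spanned a 4.70-fold range. In RNA from whole cultures, fewer cells that express a gene and less RNA per cell cannot be told apart. On the log2(CPM + 1) scale this range was 2.23, against a median of 0.84 over the 12560 genes, and 12.1% of these genes had a wider one. The SD between lines was 0.88 on this scale, 3.92 times the SD of the difference between the 2 libraries of a line.

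Bcr (ENSMUSG00000009681, chr10:75060592-75184921, plus strand, 8191 exonic bases) encodes a protein with kinase and GTPase activating domains. It was 438, 245, 183 and 119 CPM with DMSO and 358, 217, 227 and 241 CPM with Senexin B in the Cdk8 fl/fl lines 1 to 4. The Cdk8 Δ/Δ lines 1 to 4 had 240.1, 487, 167 and 219 CPM with DMSO and 185, 465, 223 and 296 CPM with Senexin B. The same 2 lines, Cdk8 fl/fl line 1 and Cdk8 Δ/Δ line 2, were the highest for Bcr as for Abl1. The range of the line means was 1.48 on the log2 scale, and 22.2% of genes had a wider one. The difference between the 2 libraries of a line had an SD of 0.47 for Bcr, close to the 0.52 between lines, and of 0.22 for Abl1.

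**Figure D2:**
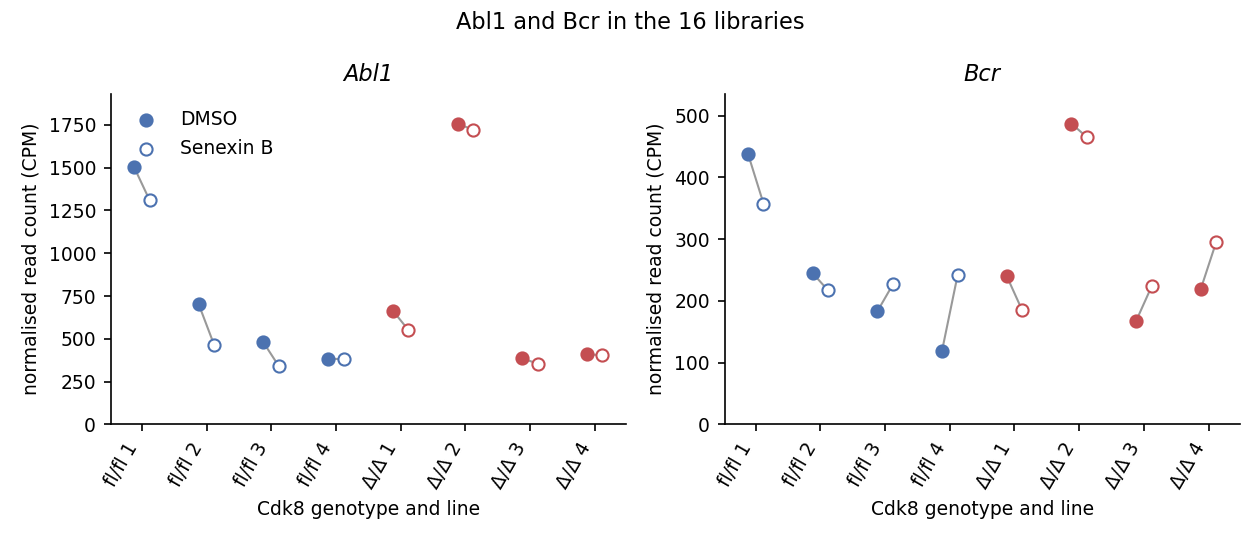
Normalised read count in CPM (y axis, from 0) of Abl1 and of Bcr in each of the 8 lines (x axis), with a filled point for the DMSO library, an open point for the Senexin B library and a line joining them, in blue for Cdk8 fl/fl and red for Cdk8 Δ/Δ. In both panels line 1 of Cdk8 fl/fl and line 2 of Cdk8 Δ/Δ stand above the other 6 lines with either treatment.

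Over the 8 line means, log2(CPM + 1) of Abl1 and of Bcr had a Pearson r of 0.938 (two-sided exact permutation p = 0.0109) and a Spearman rank correlation of 0.881 (p = 0.00724). Over the line means the relation was weaker without the 2 high lines, which stood farthest from the median of Abl1. Without them, r was 0.377 (exact permutation p = 0.456) and the rank correlation was 0.714 (p = 0.136) over the 6 other lines. With DMSO alone, r was 0.947 over 8 lines (exact permutation p = 0.00104) and 0.753 over the 6 (p = 0.0361), where the rank correlation was 0.943 (p = 0.0167). With Senexin B alone, r was 0.815 over 8 lines (exact permutation p = 0.0511) and -0.515 over the 6 (p = 0.267), and the difference between the treatments was not tested. These are p-values of 1 relation under several choices of libraries and were not adjusted. The 2 lines left out were picked by their own Abl1 values, so these values do not settle whether the relation holds in the other 6.

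The genes whose line means followed Abl1 most closely, among 12560 genes, were Gm5512 with an r of 0.994, Gm4759 with 0.984 and Rmnd1 with 0.962 over the 8 lines. Gm5512 was barely expressed, at 0.441 to 2.59 CPM, while Gm4759 ranged from 133 to 281 CPM and Rmnd1 from 17.1 to 57.5 CPM, each highest in Cdk8 Δ/Δ line 2. Bcr stood at place 17 in this order. For Bcr the closest were Hdgfl3 with an r of 0.972, Zc3h12a with 0.957 and Gm5512 with 0.949, and Abl1 stood at place 6. With 8 lines of which 2 stand apart, a gene that is high in these 2 alone scores a high r.

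The 8 other genes did not share this pattern. For none of the 8 were Cdk8 fl/fl line 1 and Cdk8 Δ/Δ line 2 the 2 highest lines. Grb2, Crkl and Shc1 had the narrowest ranges of line means, 0.33, 0.35 and 0.39 on the log2 scale, and 96.1%, 94.5% and 91.9% of genes ranged more widely. Abl2 ranged over 0.59, Cbl over 0.86, Sos1 over 0.88, Crk over 0.97 and Gab2 over 1.295. Between the lowest and the highest line, Grb2 and Crkl thus varied by 1.25-fold and 1.28-fold, against 4.70-fold for Abl1. The rest of the 8 genes lay between 1.31-fold for Shc1 and 2.68-fold for Gab2, with Cbl at 1.79-fold and Crk at 1.97-fold.

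Crkl (ENSMUSG00000006134, chr16:17451987-17486255, plus strand) lay between 126 and 203 CPM in the 16 libraries, and its relative Crk (ENSMUSG00000017776, chr11:75679259-75706908, plus strand) between 55.2 and 126 CPM. Crk was highest in line 1 of the Cdk8 Δ/Δ lines with both treatments, at 126 CPM with DMSO and 113 CPM with Senexin B. Cbl (ENSMUSG00000034342, chr9:44142976-44234049, minus strand), the ubiquitin ligase, lay between 224 and 519 CPM, and Cdk8 Δ/Δ line 4 was the highest line with 519 and 474 CPM. Shc1 (ENSMUSG00000042626, chr3:89418443-89430027, plus strand) stayed between 52.7 and 82.0 CPM. Abl2 (ENSMUSG00000026596, chr1:156558786-156649568, plus strand), a cytoplasmic kinase that also binds actin, stayed between 44.8 and 99.6 CPM.

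The comparison of Cdk8 Δ/Δ with Cdk8 fl/fl lines asks whether loss of CDK8 changes the expression of these genes. A gene was called at an adjusted p under 0.05 (edgeR's quasi-likelihood test, Benjamini-Hochberg over all genes tested) and a fold change over 2. With DMSO, 0 of the 10 genes were called, against 0.00759% of the 13174 genes tested. At an unadjusted p under 0.05 there was 1 of the 10, Sos1, against 5.32% of all genes, and with the replicate number as a block also 1, Sos1, against 4.11%. Between genotypes this block pairs individually derived lines by their number alone, so it is no check on a real pairing. DESeq2 also called 0 of the 10, against 0.116% of the 27542 genes it tested. The median log2 fold change of the 10 was 0.03, beside 0.00 over all genes, and 5 were higher and 5 lower. None had groups that did not overlap, which 3.18% of the 12560 genes with a mean of at least 1 CPM did.

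Sos1 (ENSMUSG00000024241, chr17:80393752-80480453, minus strand), the RAS exchange factor, was 140, 161, 128 and 176 CPM in the Cdk8 fl/fl lines 1 to 4 and 132, 106, 109 and 82.3 CPM in the Cdk8 Δ/Δ lines 1 to 4, all with DMSO. The highest Cdk8 Δ/Δ library, line 1, lay above the lowest Cdk8 fl/fl library, line 3, and the groups overlap there. The log2 fold change was -0.49 ± 0.16 (SE; unadjusted p = 0.0155, adjusted p = 0.897, edgeR). With Senexin B the values were 175, 106, 103 and 97.3 CPM against 176, 108, 87.9 and 86.8 CPM, and the log2 fold change was -0.07 ± 0.29. A Cdk8 fl/fl line and a Cdk8 Δ/Δ line, line 1 of each, were then equally high, and the groups overlapped over most of their range.

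Gab2 (ENSMUSG00000004508, chr7:97081586-97308946, plus strand), the docking protein, had a log2 fold change of -0.60 ± 0.33 with DMSO (adjusted p = 0.908, edgeR) and of 0.34 ± 0.42 with Senexin B. Cbl was 0.31 ± 0.20 with DMSO and 0.28 ± 0.22 with Senexin B, and Crkl was -0.21 ± 0.12 with DMSO. For Abl1 the log2 fold changes were 0.08 ± 0.60 and 0.28 ± 0.63, and for Bcr 0.18 ± 0.45 and 0.17 ± 0.31. The standard errors of Abl1 and Bcr were the widest of the 10 with DMSO, and leaving out single lines turned the direction. Without Cdk8 Δ/Δ line 2 the values for Abl1 turned to -0.66 with DMSO and -0.51 with Senexin B, and those for Bcr to -0.24 and -0.15. With DMSO, Abl1 also turned without Cdk8 fl/fl line 3 (-0.10), without Cdk8 fl/fl line 4 (-0.16) and with the replicate number as a block (-0.023), and Bcr without Cdk8 fl/fl line 4 (-0.056). With Senexin B, 0 of the 10 genes were called by edgeR, against 0% of the 13010 genes tested, and 0 by DESeq2, against 0.0358% of 27919, and 0 had an unadjusted p under 0.05, against 1.55% of all genes, nor with the block, against 1.96%. The median was 0.17, beside -0.00 over all genes, with 9 of the 10 higher in Cdk8 Δ/Δ lines, and none had groups without overlap, against 0.971% of genes.

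**Figure D3:**
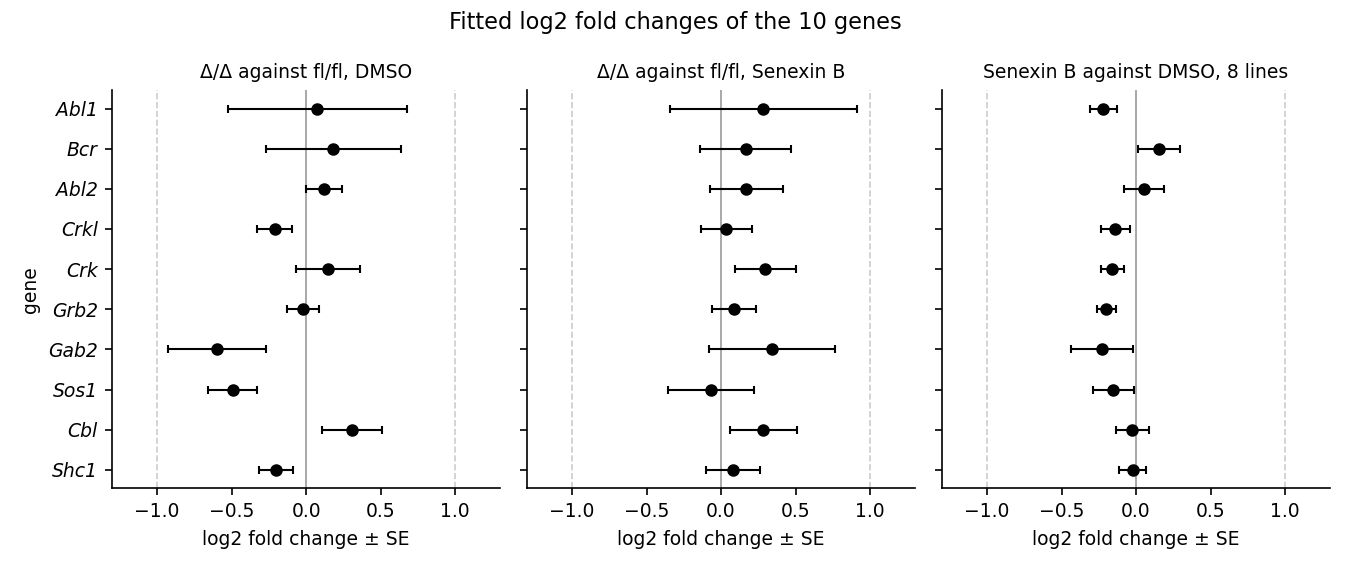
Fitted log2 fold changes (x axis) of the 10 genes (y axis), with bars of 1 standard error, for Cdk8 Δ/Δ against Cdk8 fl/fl with DMSO, the same with Senexin B, and Senexin B against DMSO over the 8 lines with the line as block. Dashed lines mark a change of 1, which no point passes. The bars of Abl1 and Bcr are wide between genotypes and narrower within lines, where only the bar of Gab2 is wider than that of Bcr.

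The comparison of Senexin B with DMSO asks what the inhibitor of CDK8 and CDK19 does to the same genes. In the Cdk8 Δ/Δ lines, where Cdk8 was deleted, it asks what the inhibitor does without CDK8. Both libraries of a line resembled each other more than they resembled those of other lines, so the values with the line as a block are given beside those without it where the counts differ. In the Cdk8 fl/fl lines 0 of the 10 genes were called, against 0% of the 12989 genes tested, and with the block 0 of the 10 against 0.346%. Among the Cdk8 Δ/Δ lines 0 of the 10 were called against 0% of the 13285 genes, and with the block 0 against 0.0527%. Over all 8 lines 0 of the 10 were called against 0% of the 14164 genes, and with the block 0 against 0.946%. DESeq2 without a block called 0 of the 10 in each of these 3 comparisons, against 0.0696%, 0% and 0.0568% of the genes it tested. At an unadjusted p under 0.05 there were in the Cdk8 fl/fl lines 0 of the 10 against 3.8% of all genes, and with the block 1, Gab2, against 10.3%. For the Cdk8 Δ/Δ lines there were 0 against 1.83%, and with the block 0 against 10.3%. Over all lines there was 1, Grb2, against 4.86%, and with the block 2, Grb2 and Abl1, against 16.4%.

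Over all lines and with the block, 8 of the 10 genes had a log2 fold change under 0 and the median was -0.15, beside -0.00 over all genes. Grb2 (ENSMUSG00000059923, chr11:115644045-115708597, minus strand), which joins phosphorylated receptors and kinases to SOS1, was lower with Senexin B in 8 of 8 lines. In the Cdk8 fl/fl lines 1 to 4 it went from 73.8 to 61.3 CPM, from 89.3 to 80.1 CPM, from 87.5 to 71.7 CPM and from 83.0 to 67.0 CPM. In the Cdk8 Δ/Δ lines 1 to 4 it went from 83.5 to 70.4 CPM, from 74.8 to 66.1 CPM, from 81.7 to 80.5 CPM and from 88.1 to 80.6 CPM. The differences were small and even, from -0.30 to -0.02 on the log2(CPM + 1) scale. The fitted log2 fold change was -0.20 ± 0.07 with the line as block (unadjusted p = 0.0109, adjusted p = 0.148, edgeR) and -0.20 ± 0.08 without it (adjusted p = 0.889), so Grb2 did not pass the adjusted limit. The same lines gave these p-values, so the 8 of 8 is no separate evidence. The share of all genes with 1 direction in all 8 lines was not computed.

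Abl1 was also lower with Senexin B in 8 of 8 lines, by 0.02 to 0.60 on the log2(CPM + 1) scale, with the smallest differences in Cdk8 Δ/Δ line 4 and Cdk8 fl/fl line 4. The fitted log2 fold change was -0.22 ± 0.09 with the block (unadjusted p = 0.0337, adjusted p = 0.252, edgeR) and -0.19 ± 0.45 without it. As for Grb2, the count of lines is no separate evidence. Bcr went both ways, higher in 4 and lower in 4 of the 8 lines. It was lower in the lines 1 and 2 of both genotypes and higher in the lines 3 and 4 of both, with the largest difference in Cdk8 fl/fl line 4, from 119 to 241 CPM. Its log2 fold change over the 8 lines was 0.15 ± 0.14 with the block and 0.08 ± 0.28 without it. Crk was lower in 6 of 8 lines, with -0.16 ± 0.08 (adjusted p = 0.340 with the block, edgeR). The other members with a balanced count were Sos1, Cbl and Gab2, each higher in 4 lines and lower in 4, while Abl2 was higher in 5, and Crkl and Shc1 were each higher in 3.

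**Figure D4:**
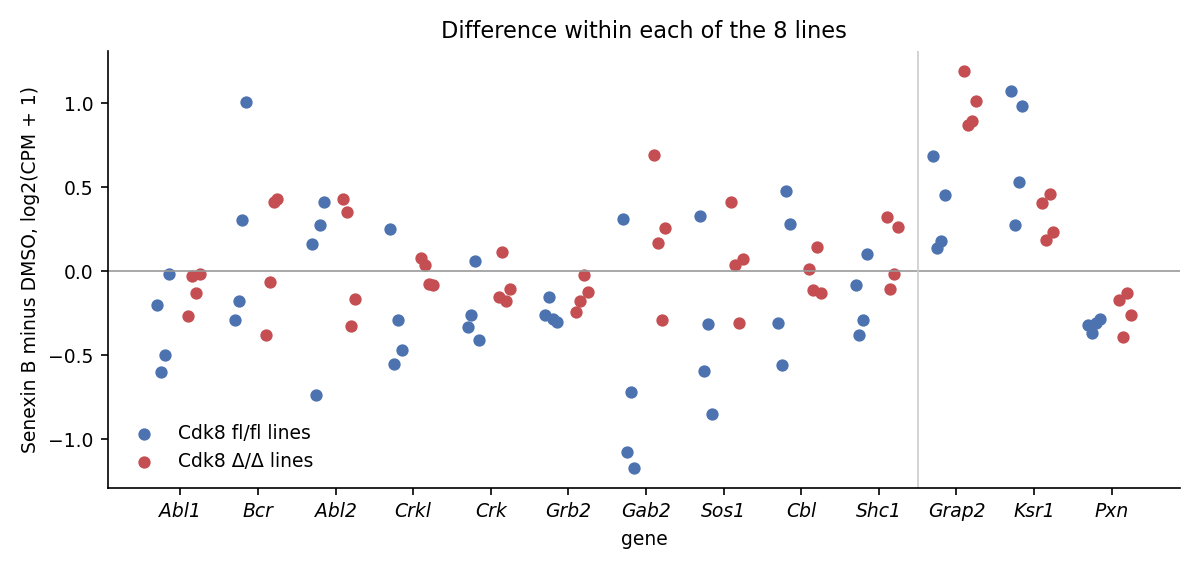
Difference between the Senexin B and the DMSO library of each line in log2(CPM + 1) (y axis) for the 10 genes and, to the right of the grey line, Grap2, Ksr1 and Pxn (x axis), 1 point for each of 4 Cdk8 fl/fl lines (blue) and 4 Cdk8 Δ/Δ lines (red). All 8 points of Abl1, Grb2 and Pxn lie below 0 and all 8 of Grap2 and Ksr1 above 0, while Bcr and Gab2 spread to both sides.

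Gab2 showed the largest differences within lines of the 10 genes. In the Cdk8 fl/fl lines 1 to 4 it went from 81.5 to 101 CPM, from 83.8 to 39.3 CPM, from 66.6 to 40.05 CPM and from 170.1 to 75.0 CPM. In the Cdk8 Δ/Δ lines 1 to 4 it went from 85.7 to 139 CPM, from 71.0 to 79.8 CPM, from 67.1 to 54.7 CPM and from 41.5 to 49.7 CPM. It was thus lower with the inhibitor in 3 of 4 Cdk8 fl/fl lines and higher in 3 of 4 Cdk8 Δ/Δ lines. The log2 fold change in the Cdk8 fl/fl lines was -0.64 ± 0.40 without a block and -0.67 ± 0.25 with it (unadjusted p = 0.0259, adjusted p = 0.389, edgeR). For the Cdk8 Δ/Δ lines it was 0.29 ± 0.36 and, with the block, 0.21 ± 0.15.

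The test of the difference between the genotypes gave 0.94 ± 0.57 for Gab2 (adjusted p = 1.00, edgeR) and 0.89 ± 0.33 with the block (unadjusted p = 0.0205, adjusted p = 0.991, edgeR). In this test 0 of the 10 genes were called, against 0% of the 14164 genes, by edgeR with and without the block and by DESeq2, and at an unadjusted p under 0.05 there were 0 of the 10 against 0.473% of all genes, and with the block 1, Gab2, against 3.24%. A single line decided whether Gab2 was called in the Cdk8 fl/fl lines. Without line 1, where it was higher with Senexin B, and with the block, the log2 fold change was -1.004 ± 0.16 (adjusted p = 0.00604, edgeR) and Gab2 was called, beside 4.15% of all genes tested. Without line 2, 3 or 4 it was not called, and neither was it without line 1 in the fit with no block. This alternative was chosen after seeing the data. Within the Cdk8 fl/fl lines Sos1 and Crkl differed in the same directions as Gab2, higher in line 1 and lower in lines 2, 3 and 4, and so did Cdk8, Sla and Cd2ap, so this order of lines was not particular to Gab2. The log2 fold change of Sos1 there was -0.31 ± 0.22 and that of Crkl -0.24 ± 0.16.

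**Figure D5:**
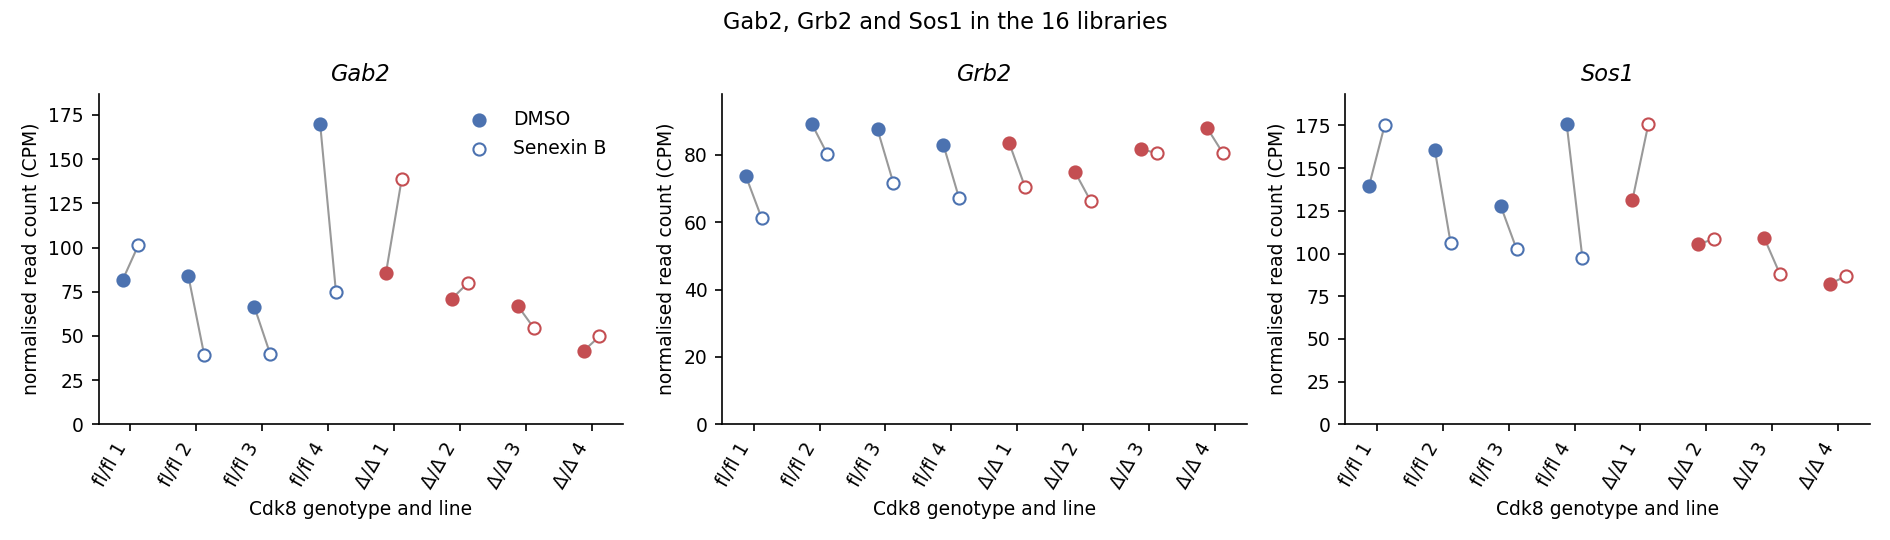
Normalised read count in CPM (y axis, from 0) of Gab2, Grb2 and Sos1 in each of the 8 lines (x axis), with a filled point for DMSO, an open point for Senexin B and a line joining them, in blue for Cdk8 fl/fl and red for Cdk8 Δ/Δ. Grb2 is slightly lower with Senexin B in every line, while Gab2 and Sos1 are lower in 3 of 4 Cdk8 fl/fl lines and higher in line 1 of both genotypes.

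The relatives and partners of these genes gave the surroundings. Of 11 relatives (Abr, Sos2, Gab1, Gab3, Cblb, Cblc, Shc2, Shc3, Shc4, Grap and Grap2), 8 were tested with DMSO and 0 were called between genotypes in either direction. The same held for 20 tested of 21 ABL partners, 15 of 15 genes of the path from RAS to ERK and 9 of 10 partners of CBL. The medians of their log2 fold changes were -0.12, 0.02, -0.16 and -0.07, beside 0.00 over all genes. With Senexin B, 0 of the 7 relatives, 20 ABL partners, 15 genes from RAS to ERK and 10 partners of CBL tested were called. With DMSO the 2 smallest p-values of each list belonged to Gab3, a relative of Gab2, at -0.87 ± 0.35, to the adaptor Sh3bp2 at 0.52 ± 0.18, to Sla, an adaptor that works with CBL, at -0.43 ± 0.19, and to the ubiquitin ligase gene Cblb at -0.44 ± 0.20, all with an adjusted p of 0.897 (edgeR). Pstpip1 at -0.44 ± 0.23, Map2k2 at -0.26 ± 0.13 and Braf at -0.21 ± 0.13 were the others.

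In the Cdk8 Δ/Δ lines and over all lines, the relative with the largest difference with Senexin B was Grap2, which encodes GADS, a GRB2-like adaptor of lymphocytes. In the Cdk8 Δ/Δ lines 1 to 4 it went from 27.0 to 63.1 CPM, from 20.7 to 38.6 CPM, from 19.7 to 37.5 CPM and from 10.8 to 22.9 CPM. With the block its log2 fold change there was 1.03 ± 0.11 (adjusted p = 0.0395, edgeR), the 1 gene of the 4 lists that edgeR called in any comparison with no line left out, beside 0.0527% of all genes. Without the block it was 1.05 ± 0.36 (adjusted p = 1.00), and with the block it was not called when any of the 4 lines was left out (log2 fold changes of 0.96 to 1.078, adjusted p from 0.0407 to 0.332). In the Cdk8 fl/fl lines it went from 22.5 to 36.8 CPM, from 21.02 to 23.2 CPM, from 39.7 to 45.1 CPM and from 59.5 to 81.8 CPM, a log2 fold change of 0.40 ± 0.45 without and 0.39 ± 0.16 with the block. Gab3 differed more there, at -0.80 ± 0.44 without and -0.83 ± 0.27 with the block (adjusted p = 0.325 with the block, edgeR). Grap2 was therefore higher with Senexin B in 8 of 8 lines while Grb2 was lower in 8 of 8, counts from the same lines that gave their p-values.

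Over the 8 lines and with the block, Grap2 at 0.70 ± 0.13 (adjusted p = 0.0165, edgeR), Ksr1, a scaffold of the RAF, MEK and ERK kinases, at 0.55 ± 0.12 (adjusted p = 0.0336) and Pxn, which encodes the focal adhesion adaptor paxillin, at -0.28 ± 0.06 (adjusted p = 0.0431) were under the adjusted limit, as were 2.63% of all genes. None of the 3 reached a fold change of 2, and without the block none passed. Ksr1 was higher and Pxn lower with Senexin B in 8 of 8 lines, the same lines that gave their small p-values, so this is no separate evidence. Gab1, a relative of Gab2, was -0.44 ± 0.13 (adjusted p = 0.0987), Map2k1, the ERK kinase MEK1, was -0.27 ± 0.09 (adjusted p = 0.140), and Cd2ap, Eps15 and Nck2 lay between -0.37 and -0.21 with adjusted p of 0.213 and above. By list, with the block, 1 of 8 relatives, 1 of 20 ABL partners, 1 of 15 genes from RAS to ERK and 0 of 10 CBL partners were under the adjusted limit, and the medians of their log2 fold changes were -0.12, -0.02, -0.03 and -0.05, beside -0.00 over all genes. Cblb belongs both to the relatives and to the partners of CBL and is counted in both.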

How the data were processed

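The authors used Trimmomatic on 50-base single-end reads of SENSE mRNA libraries and STAR for mapping, and summed reads by gene in featureCounts 1.5.1 on GENCODE M13 (GRCm38) union gene models, without a strand option. The deposited values are these raw counts. The header names a folder called modified in 15 of 16 files, but the gene models are identical in all 16. Of the gene identifiers, 50376 matched a symbol and 310 did not. Genes that overlap the 10 members drew at most 98 reads over the 16 libraries, beside 17543 for Abl2, the gene with that overlap.

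Counts were tested in R 4.3.3 with edgeR 4.0.16 (TMM, filterByExpr, robust quasi-likelihood test) on all genes, with Benjamini-Hochberg adjustment. Calls were made at a fold change over 2 with an adjusted p under 0.05. CPM are TMM-normalised over all libraries, log2 values of CPM add a pseudocount of 1, and standard errors were derived from the log2 fold change and its F statistic. Each comparison used only its own groups. Exact permutation tests used scipy 1.17.1, figures matplotlib 3.10.9. Fits were tested on simulated counts with the same dispersion for all genes and, between genotypes, no line effect. That checks the code and not the error rates in these lines. Chi-square per degree of freedom between libraries of a group was at least 49.0, so none was a copy of another in its group. Libraries of different groups were not compared in this way. DMSO and Senexin B libraries with the same number deviated together from their group means (correlation 0.559 to 0.781 in Cdk8 fl/fl and 0.765 to 0.872 in Cdk8 Δ/Δ), so the number pairs them as a line. Between genotypes the mean correlation of libraries with the same number was 0.0097 with DMSO and 0.124 with Senexin B. For different numbers it was -0.0029 and -0.041, so the number gave little pairing between genotypes. The alternatives were DESeq2 1.42.0, RLE size factors, no low-count filter, a minimum of 10 counts in every library, all 16 libraries in one fit, calls by adjusted p alone, the replicate block and leaving out libraries. The blocked fits with lines left out, and those without Cdk8 fl/fl line 1 and Cdk8 Δ/Δ line 2, were chosen after seeing the data. Members and lists were chosen with earlier results of these data known. Named are the 10 members, Cdk8, and from 4 lists the genes called in any comparison and the 2 of smallest p in each list for genotype with DMSO and for Senexin B over all lines with the block, besides the 3 genes most like Abl1 and Bcr. For genotype, the p-values without a block measure the spread between individually derived lines. For Senexin B and the test of the difference between genotypes, those with the block measure the spread of differences within lines. Without the block, these fits treat the 2 libraries of a line as independent, which they are not.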

Additional observations from a re-analysis of the deposited data

Results flagged for a closer look

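In groups of 4 libraries, the gap between the most extreme sample and its nearest neighbour was compared with the group's range for 10 genes in 4 groups, 40 sets of values in all. Dixon's 95% limit was passed in 7 of them, 17.5%, where chance gives about 5% for normally distributed values. The values used were CPM without a log scale, on which high values stand apart more easily. The share over all genes was not computed, so the 17.5% is not read as an excess for these genes. The values are not independent, since a line gives 2 libraries and libraries are shared between genes. Abl1 stood apart in Cdk8 fl/fl line 1 with Senexin B, at 1310 CPM against 462 CPM in the next library, and in Cdk8 Δ/Δ line 2 with Senexin B, at 1722 CPM against 551 CPM. Sos1 stood apart in Cdk8 fl/fl line 1 with Senexin B, at 175 CPM against 106 CPM. Crk was high in Cdk8 Δ/Δ line 1 with Senexin B, at 113 CPM against 74.4 CPM, and Gab2 in Cdk8 fl/fl line 4 with DMSO, at 170.1 CPM against 83.8 CPM. Cbl was low in Cdk8 fl/fl line 3 with DMSO, at 231 CPM against 322 CPM, and high in Cdk8 Δ/Δ line 4 with DMSO, at 519 CPM against 334 CPM. For none of the 10 genes did all 4 lines of one genotype move opposite to all 4 lines of the other with Senexin B.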

How the results depend on the processing

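The count of genes called between genotypes with DMSO was 1, and it was 32 by DESeq2, 0 with at least 10 counts in every library, 0 with the replicate block, 0 without Cdk8 fl/fl line 1 and Cdk8 Δ/Δ line 2 and 0 to 0 when 1 library was left out. With Senexin B it was 0, and 10 by DESeq2, 1 with all 16 libraries in one fit and 1 with no low-count filter. For the inhibitor in the Cdk8 fl/fl lines it was 0, and 19 by DESeq2, 3 with no filter and 45 with the replicate block, which became 0 to 538 when a line was left out, the highest without line 1, with 0 to 1 members called. In the Cdk8 Δ/Δ lines it was 0, and 7 with the block, 0 to 31 when a line was left out, the highest without line 1. Over all lines it was 0, and 17 by DESeq2, 1 with at least 10 counts, 0 to 5 when a line was left out and 134 with the block, 80 to 178 when a line was left out. Beside the call of Grap2 in the Cdk8 Δ/Δ lines and, without line 1, that of Gab2 in the Cdk8 fl/fl lines, the block changed no other call of the 10 members, Cdk8 and the list genes named.

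Directions turned for Abl1, Bcr, Gab2, Sos1 and Grap2. For genotype with DMSO, Abl1 went from 0.08 to -0.023 with the replicate block, to -0.10 without Cdk8 fl/fl line 1 and Cdk8 Δ/Δ line 2, and from -0.66 to 0.63 when 1 library was left out, and Bcr ranged from -0.24 to 0.61. With Senexin B, Abl1 ranged from -0.51 to 0.94, Bcr from -0.15 to 0.36, Gab2 from -0.048 to 0.66 and Sos1 from -0.34 to 0.17, with 0.20 for Sos1 without both lines. For the inhibitor without a block, Abl1 ranged from -0.96 to 0.26 in the Cdk8 fl/fl and from -0.88 to 0.64 in the Cdk8 Δ/Δ lines, Gab2 from -0.12 to 0.46 in the Cdk8 Δ/Δ lines, Grap2 from -0.023 to 0.76 in the Cdk8 fl/fl lines and Bcr from -0.0082 to 0.18 over all lines. The Pearson r of Abl1 and Bcr was 0.815 with Senexin B alone, 0.377 without the 2 high lines and 0.878 to 0.979 when 1 line was left out, with an exact permutation p of 0.0651 without either high line. The rank correlation with Senexin B alone was 0.381. Of 781 alternative values for single genes, 753 kept direction and call. The cause of these changes was not tested. With 4 lines a group, the standard errors of Abl1 between genotypes were 0.60 and 0.63, so a change of Abl1 smaller than the spread between lines was not detectable.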
